A study of Mus musculus with 6 samples.

Results

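The respiratory chain genes of the mouse incisor were taken as the rows of a deposited gene count table whose symbols name a subunit of complexes I to V, either mitochondrially encoded (mt-Nd, mt-Co, mt-Cytb and mt-Atp symbols) or nuclear encoded (Nduf, Sdh, Uqcr, Cox4 to Cox8 and Atp5 symbols), with names ending in -ps left out. The choice rests on symbols and uses no measured value. It found 98 of 25703 rows, 13 of them encoded by the mitochondrial genome and 85 by the nuclear genome. Of the nuclear rows, 81 were annotated as protein coding and 4 (Cox6c2, Ndufa11b, Ndufb4c and Ndufs6b) as processed pseudogenes. The symbol rule does not take Ndufab1, Cyc1 and the electron carrier Cycs. It also puts Ndufa4 under complex I by its name, although the protein is known as a component of complex IV.

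Complexes I, III and IV pass electrons from NADH to oxygen and pump protons across the inner mitochondrial membrane. Complex II feeds in electrons from succinate without pumping, and complex V, the ATP synthase, uses the proton gradient to make ATP. The mitochondrial genome encodes a few core subunits of complexes I, III, IV and V and none of complex II, and all other subunits are made from nuclear genes and imported. Mitochondrial genes are transcribed as long polycistronic RNAs that are cut into separate messages, mostly at the tRNAs that lie between them, so their RNA levels depend on steps other than those of nuclear genes.

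Total RNA was taken from C57BL/6 mice at 6 weeks of age, from the proximal incisor, the end at which the tooth renews itself. The control group was Arid1a fl/fl (n = 3 libraries) and the other group was Gli1-CreER;Arid1a fl/fl (n = 3), here called Arid1a cKO. Both groups carry the floxed Arid1a alleles, and the labels give 1 tamoxifen protocol for all samples: intraperitoneal injection of 1.5 mg per 10 g body weight daily on 3 days at the age of 1 month. The labels name no Cre for the controls, so the group difference is that of a Cre carrier against animals without one. CreER driven from Gli1 recombines in Gli1-expressing cells and marks their descendants, while the RNA is from the whole dissected region. ARID1A is a subunit of the BAF chromatin remodelling complex. Whether each library is a different animal is not said in the labels, and the p-values rest on the spread between these libraries, which may be technical.

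Library totals ranged from 27300932 to 37908478 counts. Arid1a, the targeted gene, measured 222, 249 and 223 CPM in controls and 136, 139 and 145 CPM in Arid1a cKO, a log2 fold change of -0.72 (SE 0.0677, adjusted p = 0.00802), and every Arid1a cKO library was below every control. Values are listed in the order of replicates 1, 2 and 3, as CPM (counts scaled to a library of 1000000, with edgeR-normalized library sizes), and fold changes are log2 of Arid1a cKO over control from edgeR's quasi-likelihood test with Benjamini-Hochberg adjustment over 19613 genes. Markers of dental mesenchyme summed to 979.9 to 1129.8 CPM in controls and 931 to 997 CPM in Arid1a cKO, so these were present in every library. Those of odontoblasts, the dentin-forming cells, summed to 14209 to 36859.7 CPM in controls and 23666 to 26218 CPM in Arid1a cKO. Col1a1, which is in the odontoblast list, alone took up to 2.68% of a library's counts, so that sum does not stand for the whole list. Several features of the libraries moved with the groups or set single libraries apart. Rows of nuclear ribosomal RNA took 0.922, 1.08 and 1.10% in controls and 1.98, 7.62 and 4.23% in Arid1a cKO, so the groups were apart. Most of this was 1 row, CT010467.1, added to the list after the counts were seen. It measured 9001, 9993 and 10479 CPM in controls and 18226.5, 76616 and 40644 CPM in Arid1a cKO. By edgeR it did not pass the test, at a log2 fold change of 2.20 (SE 0.497, adjusted p = 0.0667), and DESeq2 called it higher. The list also names Lars2, a protein-coding gene. Dental epithelium markers summed to 1256, 1378 and 4687 CPM in controls and 3187, 1491 and 2197 CPM in Arid1a cKO, highest in control replicate 3, where the enamel matrix genes Amelx and Enam made up 1914 and 824 CPM. By fold change, however, 12 of the 15 epithelial markers were positive, and Epcam, an epithelial adhesion protein, and Cldn4, a tight junction protein, rose, with log2 fold changes of 0.47 (SE 0.0750, adjusted p = 0.0199) and 1.53 (SE 0.303, adjusted p = 0.0375). Of the 10 odontoblast markers 8 were negative and 2 fell, Nes at -0.86 (SE 0.163, adjusted p = 0.0359) and Alpl at -0.81 (SE 0.159, adjusted p = 0.0379). Over all genes tested, 50.8% were positive and 49.2% negative, and by the same test 1.5% rose and 2.46% fell. Erythroid and macrophage or neutrophil markers were highest in Arid1a cKO replicate 1, at 387 and 655 CPM in sum. The odontoblast sum, which includes Col1a1, was lowest in control replicate 2, at 14209 CPM.

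All 13 mitochondrially encoded genes had a lower mean in Arid1a cKO than in controls, and none passed the test. Their median log2 fold change was -0.30, with a range from -0.88 for mt-Atp8 to -0.19 for mt-Nd6, against a median of 0.004 over all 19613 genes. The smallest adjusted p among them was 0.0840, for mt-Nd2, and 6 of the 13 had an unadjusted p under 0.05, all lower, where 22% of all genes had one, 10% higher and 11.9% lower. Over all genes, 3.96% passed the test, 1.5% higher and 2.46% lower in Arid1a cKO. The groups did not overlap for 7 of the 13 genes, all lower. Of all genes 29.1% were without overlap in either direction and 15.3% were lower without overlap. A negative fold change was seen in 49.2% of all genes. The 13 are cut from shared precursor RNAs, so they are not 13 independent observations. DESeq2 called 5 of them lower (mt-Atp6, mt-Atp8, mt-Nd2, mt-Nd3 and mt-Nd4), where it called 5.98% of all genes lower, and limma-voom called none.

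The mitochondrially encoded genes together took 4.94, 5.13 and 4.13% in controls and 3.98, 3.98 and 3.89% in Arid1a cKO of each library's counts. The 3 Arid1a cKO libraries lay within a narrow range below all controls, and control replicate 3 lay much nearer to them than to the other 2 controls. With rRNA rows left out of the total, the shares were 5.0, 5.19 and 4.18% in controls and 4.06, 4.31 and 4.07% in Arid1a cKO, so control replicate 3 then fell within the Arid1a cKO range. In this bulk tissue, fewer cells rich in mitochondria and less mitochondrial RNA per cell cannot be told apart. The part of the rRNA rows and of the epithelial content in these values was not tested. The 2 mitochondrial ribosomal RNAs, mt-Rnr2 and mt-Rnr1, are transcribed from the same genome, and their groups overlapped. mt-Rnr2 measured 808, 1124 and 661 CPM in controls and 697, 775 and 613 CPM in Arid1a cKO.

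**Figure D1:**
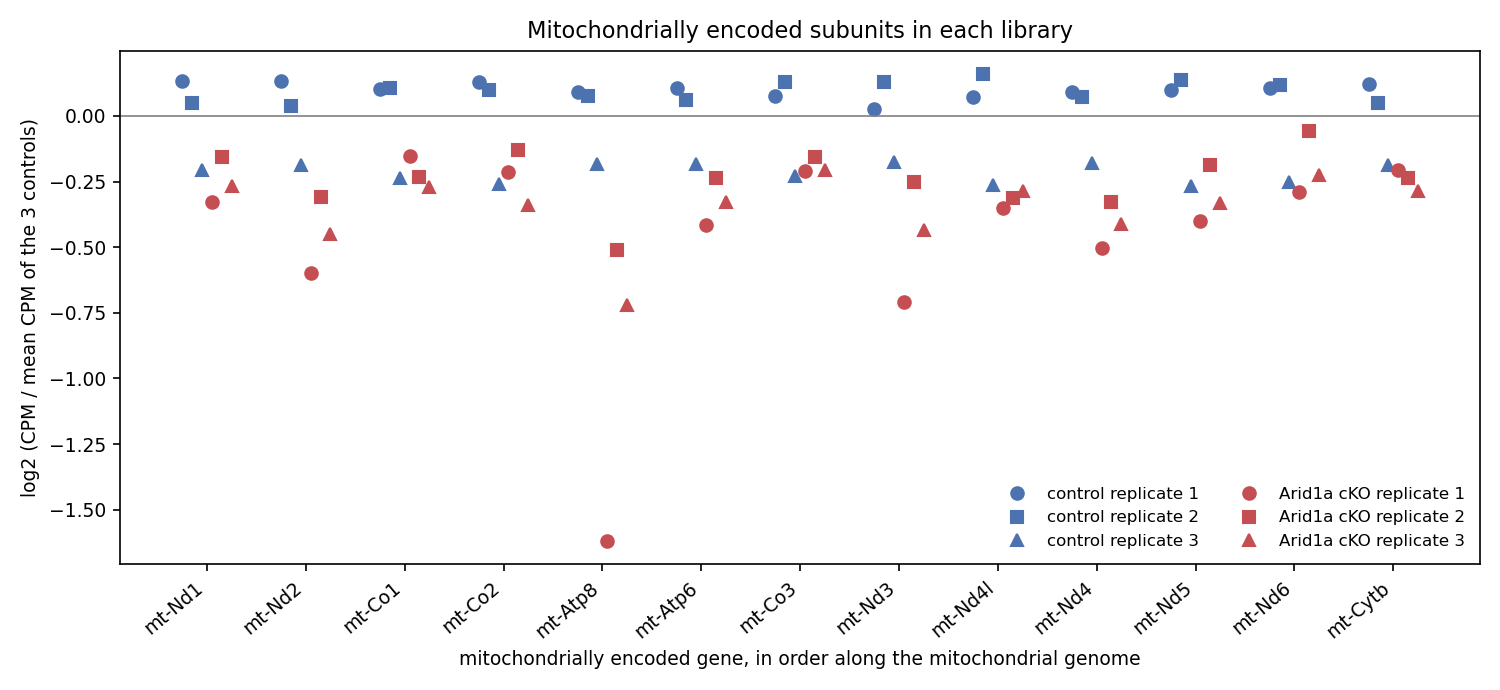
Level of each mitochondrially encoded gene in each of the 6 libraries, as log2 of its CPM over the mean of the 3 controls, in order along the mitochondrial genome; blue is control, red is Arid1a cKO, and the symbol gives the replicate. Control replicate 3 lies below the other controls at all 13 genes, and Arid1a cKO replicate 1 lies far below the rest at mt-Atp8, where it measured 329 CPM.

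Complex I holds 7 of the mitochondrially encoded genes, all subunits of its proton-pumping membrane arm. mt-Nd2 (chrM:3914-4951, + strand, mm10) measured 2799, 2623 and 2242 CPM in controls and 1686, 2060.1 and 1871 CPM in Arid1a cKO. Its log2 fold change was -0.45 (SE 0.122, adjusted p = 0.0840). All 3 controls were above all 3 Arid1a cKO libraries, by a narrow margin between control replicate 3 and Arid1a cKO replicate 2. mt-Nd3 (chrM:9459-9806, +), one of the smallest of these subunits, measured 288, 309 and 250.04 CPM in controls and 173, 237 and 209 CPM in Arid1a cKO, a log2 fold change of -0.45 (SE 0.128, adjusted p = 0.0945). mt-Nd4 (chrM:10167-11544, +) measured 6708, 6606 and 5563 CPM in controls and 4444, 5015 and 4726 CPM in Arid1a cKO, a log2 fold change of -0.41 (SE 0.116, adjusted p = 0.0901). The groups did not overlap for mt-Nd3 and mt-Nd4 either, and in both the lowest library was Arid1a cKO replicate 1. mt-Nd4l, which overlaps mt-Nd4 on the same strand, measured 541, 576 and 429 CPM in controls and 404, 415 and 423 CPM in Arid1a cKO and had a log2 fold change of -0.32 (SE 0.112, adjusted p = 0.154). The Arid1a cKO libraries were close together and control replicate 3 was just above them.

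In mt-Nd1, mt-Nd5 and mt-Nd6 the groups overlapped, each time with control replicate 3 among the Arid1a cKO libraries. mt-Nd1 (chrM:2751-3707, +) measured 3730.2, 3514 and 2949 CPM in controls and 2706, 3046 and 2823 CPM in Arid1a cKO, a log2 fold change of -0.25 (SE 0.117, adjusted p = 0.264). mt-Nd5 (chrM:11742-13565, +) measured 4825, 4956 and 3754 CPM in controls and 3419, 3965 and 3587 CPM in Arid1a cKO, a log2 fold change of -0.30 (SE 0.134, adjusted p = 0.237). mt-Nd6 (chrM:13552-14070, - strand) measured 1536, 1549 and 1200.5 CPM in controls and 1169.8, 1372 and 1221 CPM in Arid1a cKO, a log2 fold change of -0.19 (SE 0.125, adjusted p = 0.418). It is the only one of the 13 encoded on the other strand. Its change was the smallest of the 13, but mt-Co3 on the + strand was nearly equal at -0.19 (SE 0.116). The level of mt-Nd6 relative to mt-Nd5, whose end it overlaps from the other strand, was 31.8, 31.3 and 32.0% in controls and 34.2, 34.6 and 34.0% in Arid1a cKO, so these ratios did not overlap. No source used here says whether counting used strand, and without it reads of the stretch that mt-Nd5 and mt-Nd6 share cannot be told apart.

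Complex III has 1 mitochondrially encoded subunit, cytochrome b. mt-Cytb (chrM:14145-15288, +) measured 6689.9, 6364 and 5401 CPM in controls and 5328, 5226 and 5047 CPM in Arid1a cKO, a log2 fold change of -0.24 (SE 0.114, adjusted p = 0.264). The groups were apart, with control replicate 3 only slightly above the highest Arid1a cKO library. Complex IV has 3 such subunits, which form its catalytic core. mt-Co1 (chrM:5328-6872, +), which carries the site of oxygen reduction, measured 13512, 13533 and 10688 CPM in controls and 11304, 10695 and 10429 CPM in Arid1a cKO. mt-Co2 (chrM:7013-7696, +), which takes electrons from cytochrome c, measured 2845, 2781 and 2174 CPM in controls and 2240.3, 2378 and 2057 CPM in Arid1a cKO. mt-Co3 (chrM:8607-9390, +) measured 3123, 3239 and 2528 CPM in controls and 2562, 2662 and 2568 CPM in Arid1a cKO. The log2 fold changes of these 3 genes were -0.22 (SE 0.129), -0.22 (SE 0.128) and -0.19 (SE 0.116), with adjusted p of 0.363, 0.348 and 0.377. The groups overlapped in all 3, and control replicate 3 was again within or below the Arid1a cKO range.

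Complex V has a pair of mitochondrially encoded subunits in its membrane part, and their open reading frames overlap. mt-Atp8 (chrM:7766-7969, +) had the largest difference of any member between the groups. Its sequence is given because its short frame ends inside that of mt-Atp6, and capitals mark the bases that also lie in mt-Atp6 (GENCODE release M21, build mm10).
mt-Atp8: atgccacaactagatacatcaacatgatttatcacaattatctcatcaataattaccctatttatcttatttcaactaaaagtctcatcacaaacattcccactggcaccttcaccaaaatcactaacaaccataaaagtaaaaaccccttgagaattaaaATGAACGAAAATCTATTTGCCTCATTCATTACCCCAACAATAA
mt-Atp8 measured 1075, 1063 and 888 CPM in controls and 329, 708 and 612 CPM in Arid1a cKO, so the mean was 1.84-fold lower in Arid1a cKO. The log2 fold change was -0.88 (SE 0.274, adjusted p = 0.129), and all 3 Arid1a cKO libraries were below all controls. Arid1a cKO replicate 1 stood well below the other 2. Without it the log2 fold change was -0.61 with an edgeR adjusted p of 0.0434, which passes the threshold. With any other single library left out mt-Atp8 did not pass, at edgeR adjusted p from 0.101 to 0.292. mt-Atp6 (chrM:7927-8607, +), which forms the proton channel with the c ring, measured 3818, 3701 and 3128 CPM in controls and 2662, 3016 and 2831 CPM in Arid1a cKO, a log2 fold change of -0.32 (SE 0.113, adjusted p = 0.148). mt-Atp8 and mt-Atp6 are carried on 1 shared message, and the mt-Atp8 row as a percentage of the mt-Atp6 row was 28.1, 28.7 and 28.4% in controls and 12.4, 23.5 and 21.6% in Arid1a cKO. The 3 controls were almost equal, and all Arid1a cKO libraries were lower and more scattered. Against mt-Nd1, which shares no 75-base word with another gene, the mt-Atp8 row was 28.8, 30.3 and 30.1% in controls and 12.2, 23.3 and 21.7% in Arid1a cKO, the same order of libraries.

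Part of the mitochondrial reads was assigned to other rows of the table. A stretch of chromosome 1 holds a nuclear copy of a run of the mitochondrial genome, annotated as unprocessed pseudogenes, and the deposited counts are estimates that divide reads between rows they match. Of the 75-base words (the read length) in the mt-Atp6, mt-Co2, mt-Co3, mt-Nd3 and mt-Nd4l transcripts, 97.8% to 99.9% also occur elsewhere in the transcript annotation, almost all in these copies. The copy of mt-Co3 (Gm28437, chr1:24613189-24613971) held 50% of the CPM of gene and copy together in each library, an even division of reads that the sequence does not distinguish. The copies of mt-Atp6, mt-Co2, mt-Nd3 and mt-Nd4l held 33.7% to 58.3% in single libraries. The rows of these 5 genes therefore hold only part of their reads. The copy of mt-Nd4, Gm28439 (chr1:24611535-24612410), was divided otherwise, with 2.88, 2.57 and 1.73% in controls and 0.00401, 0.738 and 0.340% in Arid1a cKO. That of mt-Co1, Gm29216, held 0.636, 0.799 and 1.19% in controls and 3.72, 2.05 and 2.51% in Arid1a cKO, so for mt-Nd4 and mt-Co1 the division differed between the groups in opposite directions. mt-Atp8, mt-Cytb, mt-Nd1 and mt-Nd6 share no such word with the annotated transcripts of any other gene. Sequence outside annotated transcripts was not searched. On chromosome 1 the copy of mt-Atp6 ends at 24614651 and that of mt-Co2 begins at 24614885. In the mitochondrial genome most of mt-Atp8 lies between these genes. Whether the stretch between their copies matches mt-Atp8 was not tested.

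With each gene and its copy added together before the fit, all 13 log2 fold changes remained negative, with the same median of -0.30, and again none passed the test. mt-Nd4 with its copy measured 6906, 6781 and 5661 CPM in controls and 4444, 5052 and 4742 CPM in Arid1a cKO, a log2 fold change of -0.44 (SE 0.118, edgeR adjusted p = 0.0815). mt-Nd4l with its copy measured 982, 985 and 789 CPM in controls and 608, 722 and 713 CPM in Arid1a cKO, a log2 fold change of -0.43 (SE 0.118, edgeR adjusted p = 0.0848). In this form the controls of mt-Nd4l stood further from the Arid1a cKO libraries than in the gene row alone. The share of counts including the copies was 6.00, 6.27 and 5.06% in controls and 4.85, 4.86 and 4.77% in Arid1a cKO, so the order of the groups was as before and control replicate 3 again lay near the Arid1a cKO libraries.

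Levels per transcript length were compared as CPM per kb in controls (mean ± SD, n = 3), with the median length of a gene's principal transcripts in the annotation. Among the mitochondrially encoded rows mt-Co1 was highest at 8141 ± 1059 CPM per kb. It was followed by mt-Cytb at 5377 ± 586, mt-Atp6 at 5212 ± 542, mt-Atp8 at 4945 ± 512 and mt-Nd4 at 4566 ± 459.9 CPM per kb, and from mt-Cytb to mt-Nd4 neighbours did not differ beyond their spread. The lowest were mt-Nd4l at 1735 ± 257 and mt-Nd3 at 811 ± 85.8 CPM per kb. With the copies added, mt-Atp6 came to 10434, mt-Co2 to 8130.4, mt-Co3 to 7559.9, mt-Nd4l to 3093 and mt-Nd3 to 1880.5 CPM per kb. In this form mt-Atp6 was the highest, before mt-Co1 at 8211, and the lowest were mt-Nd3 and mt-Nd2, the latter at 2461 ± 274 CPM per kb. The highest nuclear level, that of Atp5b, the catalytic beta subunit of the ATP synthase, was 308 ± 28.4 CPM per kb, which is below the lowest mitochondrially encoded row.

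The nuclear encoded genes stood the other way in sign but by little. Of 85 rows 84 could be tested, since Cox6a2 was too low, and 71 of the 84 had a positive fold change, against 50.8% of all genes. Their median log2 fold change was 0.09 with a median SE of 0.0861, so a typical member differed by about its own error. No nuclear member passed the test as higher and 1, Cox4i2, passed as lower, against 1.5% and 2.46% of all genes. By an unadjusted p under 0.05, 14 of the 84 were higher and 2 lower, against 10% and 11.9% of all genes. The groups did not overlap for 21 members with higher and 3 with lower values in Arid1a cKO, against 13.8% and 15.3% of all genes. DESeq2 called 4 higher (Atp5e, Ndufs7, Ndufs8 and Uqcr10) and Cox4i2 lower, where it called 4.5% of all genes higher, and limma-voom called Cox4i2 alone. The median log2 fold change was 0.09 over 40 rows of complex I, 0.04 over 4 of complex II, 0.09 over 8 of complex III, 0.11 over 15 of complex IV and 0.13 over 17 of complex V.

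**Figure D2:**
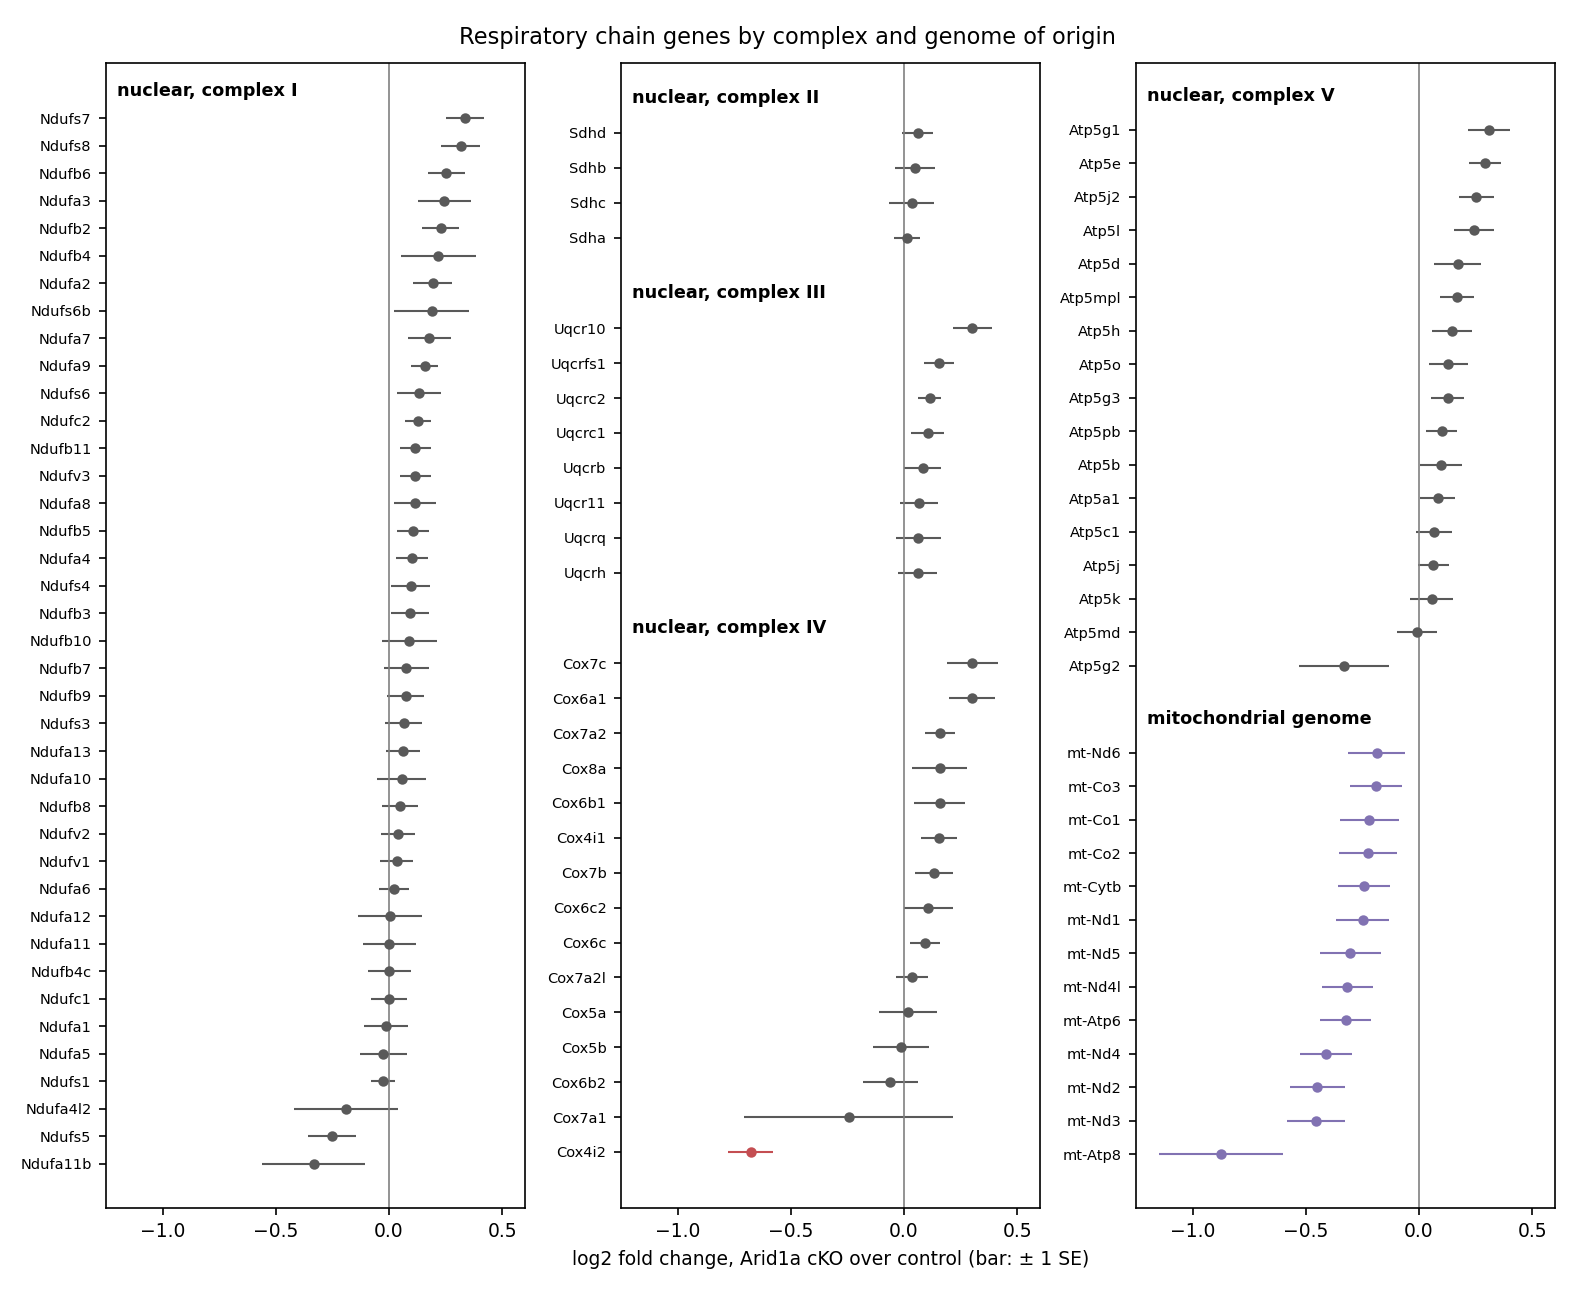
Log2 fold change of Arid1a cKO over control for 96 of the 97 tested members, by complex and genome of origin, each with a bar of 1 SE; the horizontal axis is log2, dark grey points are nuclear members, purple points are mitochondrially encoded and the red point passed the test. The mitochondrially encoded genes all lie left of 0, most nuclear members lie slightly right of it, and Cox4i2 at -0.68 stands apart.

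Complex I, the largest of the complexes, takes electrons from NADH. Its nuclear core subunits carry the flavin and the iron-sulfur clusters, and a larger number of accessory subunits surround them. Ndufs7, a core subunit that holds the last iron-sulfur cluster before ubiquinone, measured 24.0, 23.7 and 26.1 CPM in controls and 34.2, 29.7 and 29.3 CPM in Arid1a cKO. Its log2 fold change was 0.34 (SE 0.0835, adjusted p = 0.0662), and every Arid1a cKO library was above every control. Ndufs8, another iron-sulfur core subunit, measured 25.4, 22.0 and 24.3 CPM in controls and 32.5, 28.1 and 28.7 CPM in Arid1a cKO, a log2 fold change of 0.32 (SE 0.0877, adjusted p = 0.0882), also without overlap. The core subunits Ndufs1, Ndufs3, Ndufv1 and Ndufv2 had log2 fold changes between -0.03 and 0.06 and overlapping groups. Among the 30 other protein-coding rows of complex I, 25 had a positive fold change and 8 were higher without overlap, against 50.8% and 13.8% of all genes. The membrane-arm accessory subunits Ndufb6 and Ndufb2 had the smallest p of these, with log2 fold changes of 0.25 (SE 0.0828, adjusted p = 0.127) and 0.23 (SE 0.0836, adjusted p = 0.166). By level per kb in controls, complex I ranged from Ndufa4 at 145 ± 8.72 to Ndufb4 at 3.43 ± 0.537 CPM per kb. The low value of Ndufb4 is that of its row alone, since Ndufb4c, a processed pseudogene, held 91.8% of their joint CPM in controls.

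Complex II is the only one made from nuclear genes alone, and it is also an enzyme of the citric acid cycle. The median fold change of its 4 genes was the smallest of the 5 complexes. Sdha, the flavoprotein subunit that oxidizes succinate, measured 201, 188 and 189 CPM in controls and 197, 193 and 193 CPM in Arid1a cKO. Sdhb, the iron-sulfur subunit, measured 52.3, 45.3 and 54.3 CPM in controls and 56.0, 52.7 and 48.2 CPM in Arid1a cKO. The log2 fold changes were 0.01 (SE 0.0573) for Sdha, 0.05 (SE 0.0884) for Sdhb, and 0.03 (SE 0.101) and 0.06 (SE 0.0679) for the membrane anchors Sdhc and Sdhd. By edgeR, DESeq2 and limma-voom none passed the test or, in edgeR, an unadjusted p of 0.05. The groups overlapped for all 4 genes, and the errors leave room for changes of about the size seen in other nuclear members. Sdha had the highest level per kb at 66.4 ± 2.49 and Sdhc the lowest at 29.8 ± 4.22 CPM per kb.

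Complex III passes electrons from ubiquinol to cytochrome c. All 8 of its nuclear rows had a positive fold change and 3 were higher without overlap, against 50.8% and 13.8% of all genes. Uqcr10, a small membrane subunit, measured 34.6, 33.0 and 35.8 CPM in controls and 46.9, 42.5 and 37.9 CPM in Arid1a cKO, a log2 fold change of 0.30 (SE 0.0868, adjusted p = 0.0956). Uqcrfs1, the Rieske iron-sulfur protein, measured 50.7, 53.2 and 51.2 CPM in controls and 61.8, 55.7 and 55.2 CPM in Arid1a cKO, a log2 fold change of 0.16 (SE 0.0648, adjusted p = 0.213). Uqcrc2 and Uqcrc1, the core proteins, had log2 fold changes of 0.11 (SE 0.0516, adjusted p = 0.251) and 0.10 (SE 0.0739, adjusted p = 0.448). The groups did not overlap for Uqcrc2 and overlapped for Uqcrc1. By level per kb Uqcrh was highest at 161 ± 10.7 and Uqcrq lowest at 34.4 ± 4.10 CPM per kb.

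Complex IV, cytochrome c oxidase, hands electrons to oxygen, and several of its nuclear subunits exist as isoforms from separate genes. Cox4i2 (chr2:152754173-152765037, + strand, mm10) was the only respiratory chain gene that passed the test, and it fell. COX4-2 is the alternative form of subunit 4, known to be induced by low oxygen in some cells and to be used in lung and smooth muscle. Cox4i2 measured 69.1, 59.1 and 62.9 CPM in controls and 41.3, 43.4 and 34.7 CPM in Arid1a cKO. The means were 63.7 ± 5.03 and 39.8 ± 4.52 CPM (SD, n = 3 each), 1.60-fold lower in Arid1a cKO, with a log2 fold change of -0.68 (SE 0.0979, adjusted p = 0.0163) by edgeR and an adjusted p of 5.31e-07 by DESeq2. All controls lay well above all Arid1a cKO libraries. By edgeR it no longer passed without control replicate 1 (adjusted p = 0.0582) and without control replicate 3 (adjusted p = 0.0596), with log2 fold changes of -0.61 and -0.68. No 75-base word of the Cox4i2 transcript occurs in another gene.

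Cox4i1, the usual form of subunit 4, measured 180.4, 166 and 166 CPM in controls and 209.7, 180.03 and 181 CPM in Arid1a cKO, a log2 fold change of 0.15 (SE 0.0783, adjusted p = 0.296). It overlaps Emc8 on the opposite strand and Gm20388 on its own. The Cox4i2 row as a percentage of the Cox4i1 row was 38.3, 35.5 and 37.9% in controls and 19.7, 24.1 and 19.2% in Arid1a cKO, so all controls were above all Arid1a cKO libraries. Cox4i2 is also widely used as a marker of pericytes, the mural cells of small vessels. Of 12 pericyte and mural cell markers, a list added after the Cox4i2 value was seen, 2 fell (Notch3, log2 fold change -0.43 (SE 0.0569, adjusted p = 0.0139), and Pdgfrb, -0.44 (SE 0.0704, adjusted p = 0.0200)), and 1 rose (Myh11, a smooth muscle myosin, 0.80 (SE 0.161, adjusted p = 0.0463)). Over all genes 2.46% fell and 1.5% rose. Of the 12 markers 7 were negative and 5 positive, against 49.2% and 50.8% of all genes. Without overlap 5 were lower and 2 higher, against 15.3% and 13.8%. By an edgeR unadjusted p under 0.05, 6 were lower and 1 higher, against 11.9% and 10%. The list summed to 1299.9 to 1404 CPM in controls and 1092 to 1327 CPM in Arid1a cKO, and Higd1b and Des were near 0 with at most 1.96 CPM in any library. Endothelial markers summed to 369.5 to 413 CPM in controls and 329 to 438 CPM in Arid1a cKO. Of the 10 dental mesenchyme markers 4 were positive and 6 negative, and the 1 that passed the test was Gli1, which fell by 0.52 on the log2 scale (adjusted p = 0.0162). The Arid1a cKO group carries Gli1-CreER and the controls no named Cre, and the part of the driver in the Gli1 value was not tested. The part of mural or other cells in the Cox4i2 result was not tested.

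**Figure D3:**
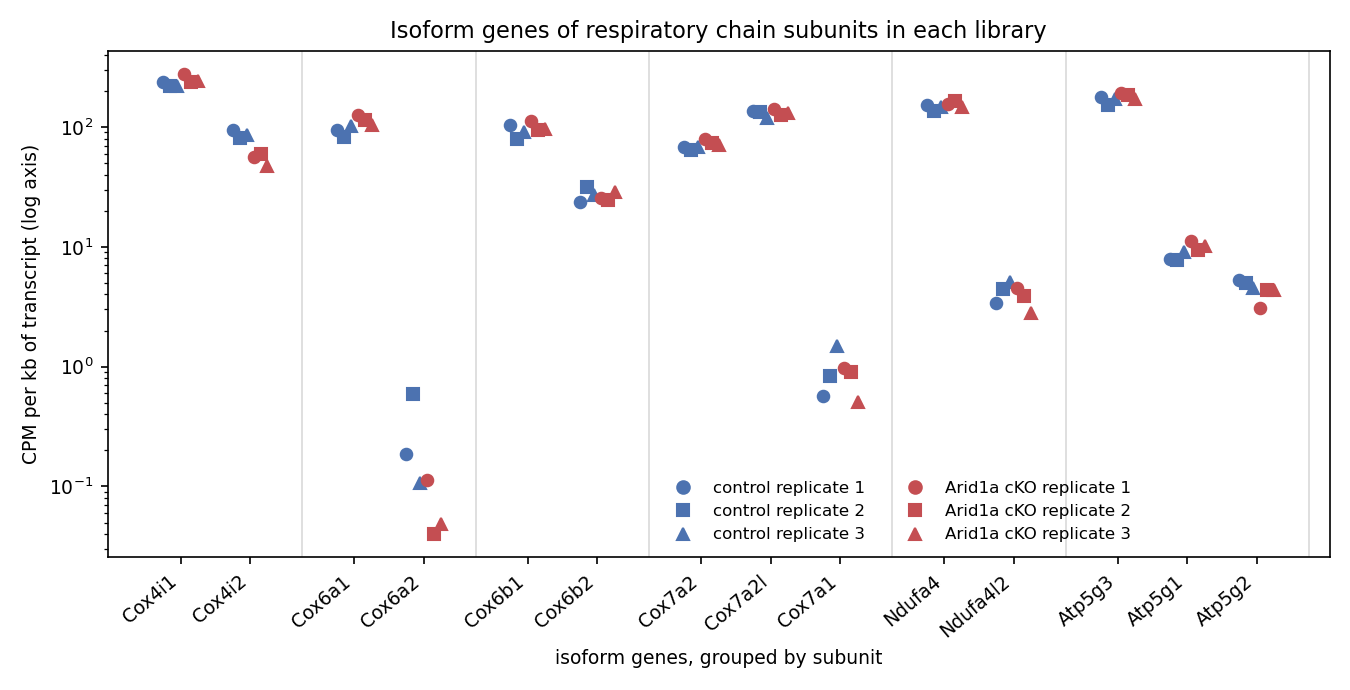
CPM per kb of transcript of isoform genes of 6 subunits in each of the 6 libraries, on a log axis; blue is control, red is Arid1a cKO and the symbol gives the replicate. In each group of isoforms the order of the gene rows, without pseudogene rows added, was the same in all 6 libraries. Cox4i2 is the isoform at which the red points lie clearly below the blue ones.

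For Cox6a, Cox6b and the pair of Ndufa4 and Ndufa4l2, the form known from most tissues was the higher one per kb, and Cox7a2 stood above Cox7a1. Cox6a1, the general form of subunit 6a, measured 54.0, 46.9 and 58.2 CPM in controls and 72.3, 64.6 and 58.9 CPM in Arid1a cKO, a log2 fold change of 0.30 (SE 0.102, adjusted p = 0.140), and its groups did not overlap. Cox6a2, the heart and muscle form, reached at most 0.399 CPM, in control replicate 2, and was not tested. Cox7a1, the muscle form of subunit 7a, lay between 0.198 and 0.584 CPM, while Cox7a2 measured 44.9, 42.4 and 44.6 CPM in controls and 52.4, 48.2 and 46.8 CPM in Arid1a cKO (log2 fold change 0.16 (SE 0.0656, adjusted p = 0.208)). Control replicate 2 was also the library with the most skeletal muscle marker counts (58.8 CPM in sum, against 16.1 to 27.8 CPM in the other 5 libraries). Cox6b2, known as the testis form, was measured at 13.1 to 17.4 CPM and stood at 27.4 ± 3.92 CPM per kb in controls, beside 91.0 ± 12.2 CPM per kb of Cox6b1. Its log2 fold change was -0.06 (SE 0.122, adjusted p = 0.819) and that of Cox6b1 0.16 (SE 0.112, adjusted p = 0.450). Cox7a2l, a factor of supercomplex assembly, and Cox8a had log2 fold changes of 0.04 (SE 0.0716, adjusted p = 0.810) and 0.16 (SE 0.121, adjusted p = 0.487). Ndufa4l2, a paralog of Ndufa4 known to be induced by HIF-1, measured 3.15, 4.13 and 4.75 CPM in controls and 4.23, 3.63 and 2.64 CPM in Arid1a cKO, with overlapping groups, and its level in controls was 4.29 ± 0.860 CPM per kb against 145 ± 8.72 of Ndufa4. By level per kb complex IV ran from Cox4i1 at 226 ± 10.9 to Cox7a1 at 0.961 ± 0.473 CPM per kb, with Cox4i2 at 87.2 ± 6.89 CPM per kb.

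Complex V had 15 of 17 nuclear rows with a positive fold change and 5 higher without overlap, against 50.8% and 13.8% of all genes. Atp5e, the small epsilon subunit of the central stalk, had the smallest p of the nuclear members after Cox4i2. It measured 54.2, 52.8 and 56.7 CPM in controls and 72.7, 64.9 and 62.8 CPM in Arid1a cKO, a log2 fold change of 0.29 (SE 0.0714, adjusted p = 0.0637), and all Arid1a cKO libraries were above all controls. Atp5j2 and Atp5l, subunits of the membrane part, had log2 fold changes of 0.25 (SE 0.0772, adjusted p = 0.110) and 0.24 (SE 0.0893, adjusted p = 0.166). Pseudogene rows held 68.8% of the joint CPM of Atp5l in controls. With them added, its log2 fold change was 0.17 (SE 0.0910, edgeR adjusted p = 0.311). The c subunit, which forms the rotating ring, is made from 3 genes that encode the same mature protein. Atp5g3 measured 128, 110.01 and 123 CPM in controls and 137, 133 and 124 CPM in Arid1a cKO, a log2 fold change of 0.13 (SE 0.0736, adjusted p = 0.355). Atp5g1 measured 21.3, 20.9 and 24.2 CPM in controls and 29.9, 25.2 and 27.1 CPM in Arid1a cKO, a log2 fold change of 0.31 (SE 0.0932, adjusted p = 0.107). Its processed pseudogene Gm10039 held 61.3% of the joint CPM in controls and 56.6% in Arid1a cKO. With that row added, the log2 fold change was 0.14 (SE 0.0799, edgeR adjusted p = 0.341) and the groups overlapped. The Atp5g2 row measured 3.12, 2.90 and 2.63 CPM in controls and 1.81, 2.54 and 2.54 CPM in Arid1a cKO and went the other way, at -0.33 (SE 0.201, adjusted p = 0.375), but 2 processed pseudogenes held 97.5, 97.5 and 97.7% in controls and 98.6, 98.2 and 98.0% in Arid1a cKO of the joint CPM. The summed rows of Atp5g2 and its pseudogenes measured 127, 117 and 113 CPM in controls and 133, 139 and 128 CPM in Arid1a cKO, with a log2 fold change of 0.16 (SE 0.0646, edgeR adjusted p = 0.203), so the sign turned when the rows were added. Per kb the summed rows stood at 203 CPM in controls, beside 167 ± 12.7 of Atp5g3.

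The same limit touched other nuclear members. Of the 81 protein-coding nuclear members, 45 share no 75-base word with another gene, 36 share some, and Atp5g2, Atp5l and Cox7c share at least 50% of theirs. Ndufs5, an accessory subunit of complex I, is the clearest case of a sign that turns. Its gene on chromosome 4 and the processed pseudogene Ndufs5-ps on chromosome 16 differ at 2 of 319 compared coding bases, and their first 75 coding bases, the length of a read, are the same, so both carry the sequence below (GENCODE release M21).
Ndufs5 and Ndufs5-ps: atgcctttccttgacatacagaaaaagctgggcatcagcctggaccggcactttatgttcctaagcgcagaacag
The Ndufs5 row measured 12.4, 11.5 and 13.4 CPM in controls and 11.3, 9.64 and 10.3 CPM in Arid1a cKO, lower in all Arid1a cKO libraries, with a log2 fold change of -0.25 (SE 0.107, adjusted p = 0.224). The Ndufs5-ps row measured 18.2, 14.5 and 16.6 CPM in controls and 22.6, 21.9 and 21.8 CPM in Arid1a cKO, higher in all of them. Their sum was 30.5, 26.0 and 30.0 CPM in controls and 33.9, 31.5 and 32.1 CPM in Arid1a cKO, with a log2 fold change of 0.17 (SE 0.0802, edgeR adjusted p = 0.260). The gene row alone and the sum therefore differed in sign, and neither passed the test. Cox7c, a small subunit of complex IV, had a log2 fold change of 0.30 (SE 0.113, adjusted p = 0.173) in its row and 0.13 (SE 0.0690, edgeR adjusted p = 0.303) with its 2 pseudogenes added. Over all 82 nuclear rows left after this addition, 70 had a positive fold change and the median was 0.10, as before. Cox4i2, Atp5e, Ndufs7, Ndufs8 and Uqcr10 share no such word with the annotated transcripts of another gene.

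**Figure D4:**
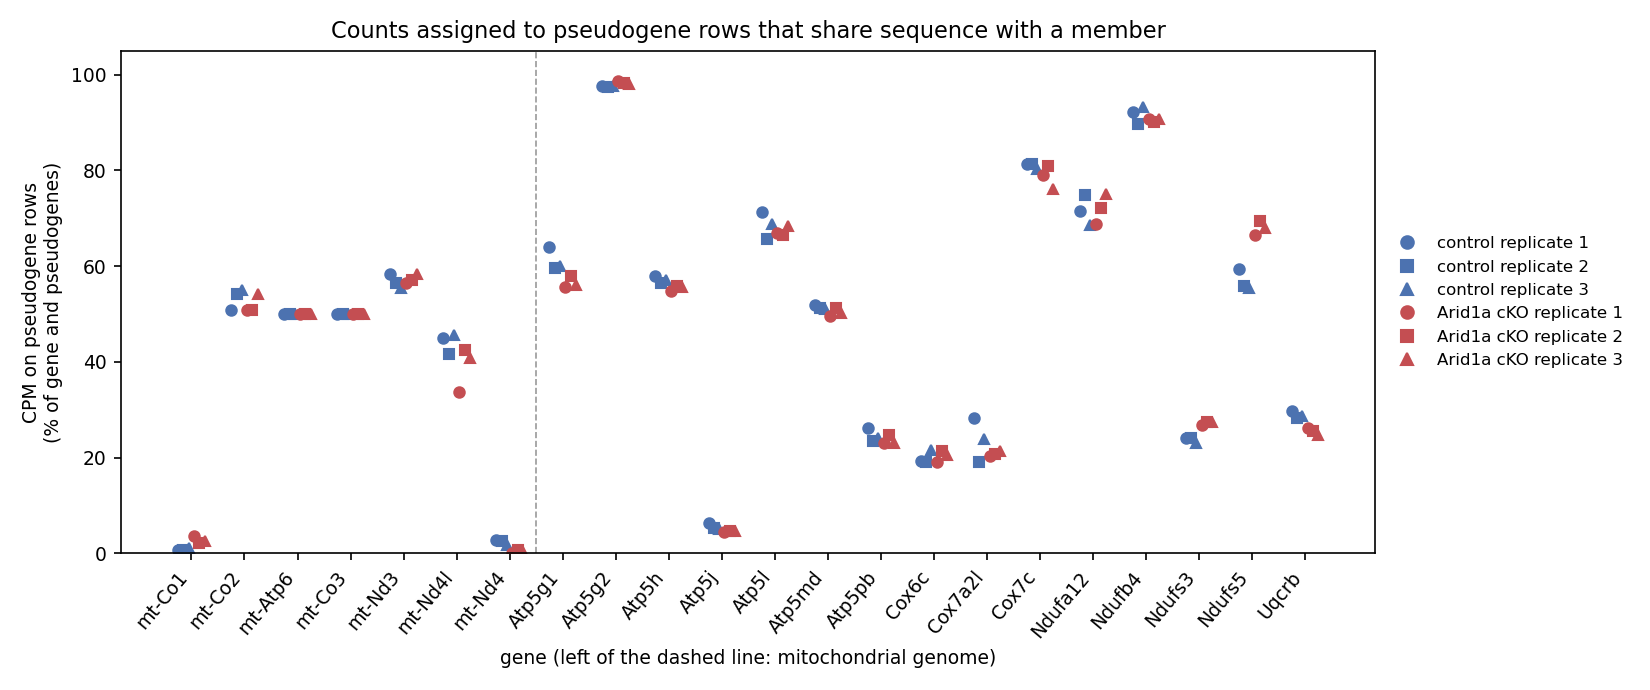
Share of the joint CPM of a gene and its pseudogene rows that lies on the pseudogene rows, in percent, for the 22 members with such rows in each of the 6 libraries; blue is control, red is Arid1a cKO and the symbol gives the replicate. mt-Co3 and mt-Atp6 sit at an even division in every library, while at Ndufs5 the red points lie above the blue ones and at mt-Nd4 below them.

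Nuclear respiratory chain genes are known targets of the transcription factors NRF1, GABP (an ETS factor) and YY1, and the first 2 are often called nuclear respiratory factors. Promoter windows from 250 bases before to 50 bases after the start (RefSeq, GRCm38.p6) were found for 66 of the 81 protein-coding nuclear members and searched on both strands for exact letters, with any overlap allowed. The NRF1 core CGCATGCG was in 9 members (13.6%) against 2.07% of 27025 genes. The GABP core CCGGAAG was in 17 members (25.8%) against 9.93%. The YY1 letters AAGATGGC were in 10 members (15.2%) against 3.19%, and 36 of the 66 members held none of the 3 motifs. These are matches of letters, chosen with the members known, and show no binding. The 4 nuclear members with the smallest p among those with positive fold changes were looked at for these motifs. The 250 bases before the start of Atp5e (chr2:174464102-174464351, - strand) hold the GABP letters on the opposite strand, in capitals.
Atp5e: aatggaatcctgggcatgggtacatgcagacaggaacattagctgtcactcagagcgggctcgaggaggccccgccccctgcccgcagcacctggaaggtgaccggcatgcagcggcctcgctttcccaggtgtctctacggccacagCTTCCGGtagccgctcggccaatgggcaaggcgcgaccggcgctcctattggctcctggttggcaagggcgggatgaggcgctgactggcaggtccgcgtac
In Ndufs8 the same letters, also on the opposite strand, begin 16 bases after the start, and in Ndufs7 the YY1 letters begin 25 bases after it, shown in capitals with their neighbouring bases.
Ndufs8: ggctccgcCTTCCGGttgaaccgc
Ndufs7: ccgaggccAAGATGGCggcgctgg
The window of Uqcr10 held none of the 3 motifs, which says only that these letters are not in it.

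Values by library put the small nuclear differences in context. Over the tested nuclear members, the median log2 deviation from the control mean was 0.0777, -0.101 and 0.0182 in controls and 0.179, 0.0785 and 0.0291 in Arid1a cKO. Control replicate 2 was the lowest and Arid1a cKO replicate 1 the highest, and the other 4 libraries lay between them with no gap between the groups. Each nuclear complex showed the same extremes. Without control replicate 2 the nuclear median log2 fold change was 0.06 with 62 of 84 positive, and without Arid1a cKO replicate 1 it was 0.05 with 60 of 84 positive. The mitochondrially encoded genes gave 0.111, 0.108 and -0.197 in controls and -0.341, -0.229 and -0.320 in Arid1a cKO, with control replicate 3 near the Arid1a cKO libraries. By these medians the outlying control was replicate 2 for the nuclear and replicate 3 for the mitochondrially encoded members. Arid1a cKO replicate 1 had the highest median for the former and the lowest for the latter. By share of counts the lowest library for the mitochondrially encoded genes was Arid1a cKO replicate 3, at 3.89%. The summed CPM of the mitochondrially encoded genes over that of the nuclear members was 9.43, 10.6 and 7.97 in controls and 6.60, 7.54 and 7.36 in Arid1a cKO, with all controls above all Arid1a cKO libraries. The sums of odontoblast, muscle, blood and epithelial markers were extreme in some of the same libraries, and the part of such cells in these medians was not tested.

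**Figure D5:**
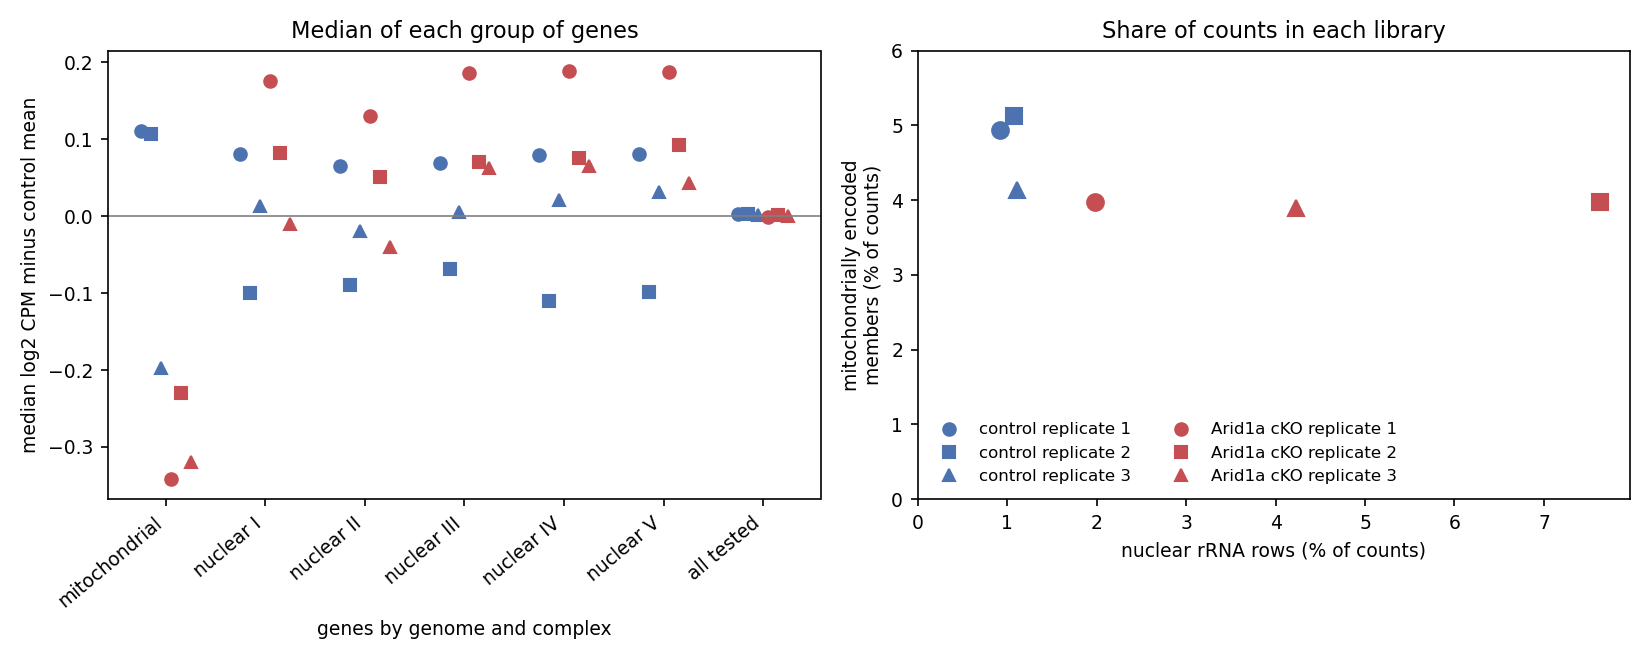
Left, median log2 CPM minus the control mean over the tested members of each genome and nuclear complex, and over all tested genes, for each library; right, share of counts from mitochondrially encoded members against the share from nuclear rRNA rows, both in percent. Blue is control and red is Arid1a cKO; control replicate 2 is lowest at every nuclear complex, control replicate 3 is lowest of the controls at the mitochondrial genes, and the 3 Arid1a cKO libraries hold 1.98% to 7.62% of nuclear rRNA counts against at most 1.10% in controls.

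Genes that make, assemble and supply the chain were described from lists. Of 50 tested assembly factors, which insert cofactors and join the subunits, none passed the test, 26 were positive and 24 negative, and the median log2 fold change was 0.0052. By edgeR 4 of the 50 had an unadjusted p under 0.05, 2 in each direction, a smaller share than the 22% of all genes, and DESeq2 and limma-voom called none. Of 32 genes that replicate, transcribe or process the mitochondrial genome, none passed the test by edgeR, DESeq2 or limma-voom. By edgeR 1 had an unadjusted p under 0.05, where 22% of all genes had one. It was Slirp, a binding partner of LRPPRC that stabilizes mitochondrial messages, with a log2 fold change of 0.22 (SE 0.0702, adjusted p = 0.124). Tfam, which packages mitochondrial DNA and starts its transcription, measured 35.7, 39.0 and 34.5 CPM in controls and 38.7, 38.5 and 39.6 CPM in Arid1a cKO, with overlapping groups. The 3 chain genes outside the symbol rule did not pass the test by any of these tools, nor an unadjusted p under 0.05 by edgeR, with log2 fold changes of -0.25 (SE 0.132, adjusted p = 0.306) for Cycs, 0.06 (SE 0.0782, adjusted p = 0.691) for Cyc1 and -0.0006 (SE 0.0978, adjusted p = 0.999) for Ndufab1.

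Among 14 regulators of mitochondrial biogenesis, 1 fell and none rose, where 2.46% of all genes fell. Ppargc1a, the coactivator PGC-1alpha that raises the output of respiratory chain genes, measured 15.1, 13.1 and 14.5 CPM in controls and 6.01, 7.50 and 8.97 CPM in Arid1a cKO. Its log2 fold change was -0.93 (SE 0.152, adjusted p = 0.0217), and the groups were far apart. Gabpa, the DNA-binding subunit of GABP, measured 109, 115 and 102 CPM in controls and 78.0, 90.9 and 88.2 CPM in Arid1a cKO, a log2 fold change of -0.34 (SE 0.0769, adjusted p = 0.0534) that narrowly missed the threshold without overlap of the groups. Yy1 had a log2 fold change of -0.26 (SE 0.0803, adjusted p = 0.111), also without overlap. In all, 10 of the 14 had a negative fold change, against 49.2% of all genes, and 6 were lower without overlap, against 15.3%. By an unadjusted p under 0.05, 5 were lower and 1 higher, against 11.9% and 10% of all genes, DESeq2 called 2 lower and none higher, and limma-voom called 1 lower and none higher. The 1 higher regulator was Nrf1, without overlap of the groups, with 32.1, 35.7 and 32.4 CPM in controls and 36.6, 37.4 and 38.3 CPM in Arid1a cKO and a log2 fold change of 0.17 (SE 0.0667, adjusted p = 0.202).

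Mitochondrial ribosomal proteins, which translate the 13 mitochondrially encoded messages, resembled the nuclear chain genes in sign. Of 78 tested, 67 had a positive fold change, against 50.8% of all genes. Without overlap 20 were higher and none lower, against 13.8% and 15.3% of all genes. By edgeR 1 rose, a share near the 1.5% of all genes. DESeq2 called 2 higher, where it called 4.5% of all genes higher, and limma-voom called none. The gene that rose by edgeR was Mrpl17, at 34.9, 33.3 and 33.8 CPM in controls and 43.4, 40.9 and 39.9 CPM in Arid1a cKO, a log2 fold change of 0.28 (SE 0.0619, adjusted p = 0.0490). The median of the list was 0.11. Of 24 genes of mitochondrial protein import and the outer membrane porins, 21 were positive and 1 rose by edgeR and by limma-voom (2 by DESeq2). Over all genes 50.8% were positive, and 1.5% rose by edgeR and 4.5% by DESeq2. Without overlap 8 of the 24 were higher and 1 lower, against 13.8% and 15.3% of all genes. The edgeR call was Tomm7, a small subunit of the outer membrane translocase, at 27.0, 28.0 and 29.5 CPM in controls and 40.2, 36.6 and 34.4 CPM in Arid1a cKO, a log2 fold change of 0.40 (SE 0.0779, adjusted p = 0.0367). Of 18 genes of pyruvate dehydrogenase and the citric acid cycle none passed the edgeR test, 9 were positive and 9 negative. By an unadjusted p under 0.05, 1 was higher and 3 were lower, together about the 22% of all genes, and DESeq2 called 1 in each direction where limma-voom called none. Pdha1, the catalytic subunit of pyruvate dehydrogenase, and Idh3g, a subunit of isocitrate dehydrogenase, had the smallest p, with log2 fold changes of -0.29 (SE 0.0687, adjusted p = 0.0612) and 0.23 (SE 0.0584, adjusted p = 0.0670), both without overlap. Of 19 glycolysis genes none passed the edgeR test, although 16 were positive (50.8% of all genes were), 9 were higher without overlap (13.8% of all genes were) and the median log2 fold change was 0.21. By an unadjusted p under 0.05, 8 of the 19 were higher, against 10% of all genes. DESeq2 called 5 of them higher, where it called 4.5% of all genes higher, and limma-voom called none. Eno2, Hk2 and Tpi1 had the smallest p, with log2 fold changes of 0.47 (SE 0.106, adjusted p = 0.0520), 0.51 (SE 0.135, adjusted p = 0.0833) and 0.29 (SE 0.0798, adjusted p = 0.0862).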

How the data were processed

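Total RNA of the proximal incisor was sequenced in 6 libraries, 3 per genotype, as single-end reads of 75 cycles, per the labels' protocols. STAR 2.6.1d and Partek were used with mm10, per the submitters' processing notes. The gene annotation, library kit and strand setting could not be learned from these sources, so reads of overlapping genes may be mixed. The authors deposited expected counts, estimated per gene and not normalized, for 25703 genes and a normalized signal table of 21456 genes. Every column belonged to a sample. Of the 98 members, 73 had counts that were not whole to within 0.01 in some library.

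Counts were rounded, filtered with filterByExpr (minimum count 10) and normalized by TMM, and the genotypes were compared by edgeR's quasi-likelihood test (two-sided, no covariates, SE from the F statistic) over 19613 genes, with 0.05 as the threshold. Versions were edgeR 4.0.16 in R 4.3.3, DESeq2 1.42.0, limma 3.58.1, matplotlib 3.10.9 and Python 3.11.15. The common biological coefficient of variation was 15.8%, so at these depths the spread between libraries limits the precision. The test was tried on simulated counts with known changes. GENCODE release M21 gave lengths and sequences, and a pseudogene row was added to a member where at least 25% of its 75-base words occur in that member.

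The members and the gene lists were chosen with earlier results of these data known. By a written rule the text names all mitochondrially encoded members, members past the threshold, the 4 nuclear members with the smallest p in each complex, isoform pairs, the highest and lowest per kb, and up to 3 genes of each other list with the smallest p. Others, such as Tfam, Nrf1 and members with pseudogene rows, were named after their values were seen. Alternatives were other normalizations, filters and tests, the authors' signal table on a log2 scale, and leaving out each library. Of the members, 1 is included in the counts and medians but is not reported here by itself.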

Additional observations from a re-analysis of the deposited data

How the results depend on the processing

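The alternatives were other scalings, filters and tests, the authors' normalized table, each library left out, and pseudogene rows added (chosen after seeing the data). All 13 mitochondrially encoded genes had negative fold changes under the 20 alternatives that keep their rows, and the median of the nuclear members was positive under all 21. With single libraries left out the median log2 fold change ranged from -0.40 to -0.22 for the mitochondrially encoded and from 0.05 to 0.15 for the nuclear members. DESeq2 called 1935 genes against 777, with 5 mitochondrially encoded and 5 nuclear members past the threshold. Leaving out single libraries gave 160 to 532 genes past the threshold, 0 to 1 mitochondrially encoded and 0 to 1 nuclear members, against 777, 0 and 1 with all 6. Over all genes the count was 160, 352 and 187 without control replicates 1, 2 and 3, and 433 and 165 without Arid1a cKO replicates 2 and 3. Such fits have 2 libraries against 3.

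Among the named members 13 of the values under alternatives had the opposite sign, 11 of them with a library left out. With single libraries left out the log2 fold change ranged from -0.0142 to 0.11 for Sdhb, from -0.0145 to 0.16 for Sdhc, from -0.0255 to 0.12 for Uqcrh, from -0.0162 to 0.14 for Uqcrq. It ranged from -0.15 to 0.0671 for Cox6b2, from -0.52 to 0.21 for Cox7a1 and from -0.0115 to 0.0777 for Cox7a2l. The sign turned without control replicate 2 (Sdhb, Sdhc, Uqcrq and Cox6b2), without control replicate 3 (Sdhc, Cox7a1 and Cox7a2l) and without Arid1a cKO replicate 1 (Sdhb, Sdhc, Uqcrh and Cox7a2l). With pseudogene rows added, the log2 fold change of Atp5g2 was 0.16 and that of Cox7a2l -0.0235. Ndufs5, which the text names outside that rule, also turned in this form, from -0.25 to 0.17. The cause was not tested. No paired analysis was possible because the labels speak of pairs of samples without saying which belong together, and the groups share only 1 sample number.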
